A study of Monodelphis domestica and Mus musculus with 2 samples.

Results

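The cytosolic ribosomal protein genes code for the proteins of the cytosolic ribosome, which makes the proteins of the cell from messenger RNA in the cytoplasm. They were taken as all features whose symbol, with case ignored, begins with Rpl or Rps followed by a digit, or is Rpsa, Rplp0, Rplp1 or Rplp2, leaving out pseudogene symbols with "-ps", the Rps6k kinase genes and features found in 8 cells or fewer. The rule gave 48 members among the 30613 features of the opossum table and 93 members among the 61317 features of the mouse table. The opossum members hold 24 proteins of the large subunit, 1 protein of the stalk, 18 proteins of the small subunit, 3 further copies and 2 genes that are not ribosomal proteins. The mouse members hold 43, 3, 31, 14 and 2 of these, so the opossum sum covers fewer of the ribosome's proteins. Opossum features named only by an Ensembl identifier could not be matched by symbol.

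Ribosomes are built in the nucleolus from ribosomal RNA and the ribosomal proteins, most of which enter each ribosome as a single copy and are held to matched amounts. Much of this matching is done at translation: the messenger RNAs of nearly all ribosomal proteins begin with a C followed by a run of pyrimidines, the 5′ terminal oligopyrimidine (TOP) motif, through which growth signals that act on mTOR switch their translation on and off together. In brain, these messenger RNAs are abundant in all cells, and some of them also travel into dendrites, axons and glial processes. The levels here are of captured RNA and not of protein or of ribosomes.

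The measurements are Stereo-seq counts. In this method a tissue section is laid on a chip of barcoded spots that capture polyadenylated RNA, and the captured molecules, counted as unique molecular identifiers (UMIs), are summed over cells outlined by image segmentation. The groups are 1 gray short-tailed opossum (Monodelphis domestica, a marsupial), a male of about 6 months, and 1 mouse, a C57BL/6J male of about P40, both without genetic change or treatment. The cells come from 3 regions of the primary visual cortex (V1) in the opossum and 4 in the mouse, each drawn by hand and reaching from the upper edge of L2/3 down through L6, and regions are parts of 1 brain, not replicates. With 1 animal in each group no difference was tested, so values are given with exact Poisson intervals at 95%, which cover counting error only, and with the value in every region.

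In V1, 4806 opossum and 9127 mouse cells passed the filter, with 6933475 and 12522687 UMIs and a median of 1326 and 1305 UMIs per cell. Of these, 4564 and 7653 cells carry a subclass label. The libraries shared 0 cell barcodes. Set against marker lists, astrocytes, oligodendrocytes (OD), their precursors (OPC), microglia, endothelial cells and L6CT had their own markers highest in both species. The markers Sst and Npy were highest in Sst in the opossum, at 50.6 UMIs per 10000 UMIs, but in the mouse stood at 14.3 in Sst and 14.9 in Lamp5. The summed level of the oligodendrocyte markers was 98.8 in opossum OD and 24.2 to 46.6 in the other subclasses, with 4 of the 5 markers found and MOBP without a feature of that name. In the mouse it was 70.5 in OD and 12.0 to 29.4 elsewhere, with 5 of 5 found. Oligodendrocyte markers were therefore not at 0 in any neuronal subclass. The reverse holds as well, since the summed level of Rbfox3, Snap25 and Syt1, markers of all neurons, was 51.0 in opossum OD against 53.0 in IT_A and 40.9 in mouse OD against 44.7 in L2/3. RNA of neighboring cells, free RNA and mistaken labels cannot be told apart here, so the RNA of an outlined cell was not read as that of 1 cell type. The labels were given from expression over many genes, members possibly included.

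The start sequences of 8 mouse members are shown because the TOP motif is what the family's messenger RNAs are known to share. The windows hold 15 bases before and 15 after an annotated start, in GRCm39 with GENCODE vM39, read 5′ to 3′ on the strand of the gene. Capitals mark the run that begins with C at the start and goes on in C or T. These genes were chosen because an annotated start carries such a run, and where a gene has several annotated starts the one with the longest run is shown.
Rplp1: gcaggcgtatatgatCTTTTCCTCagctgc
Rplp2: ctgcgtcagcgtcttCCTTTCgccgccgga
Rpl13a: gcgacaagacctcctCCTTTCCCaggcggc
Rpl22: cccgtctgactcctcCCTTTCCCgacagcc
Rps10: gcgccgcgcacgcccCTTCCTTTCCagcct
Rps21: aggcacgagctacttCCTTTCTgcgctctc
Rps27: tttccgctttcgctcCTTTCCggcggtgac
Rps27rt: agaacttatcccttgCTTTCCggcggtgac
These lie at chr9:61821807-61821836 (minus strand) for Rplp1, chr7:141027548-141027577 (plus) for Rplp2, chr7:44778147-44778176 (minus) for Rpl13a, chr4:152410135-152410164 (plus) for Rpl22, chr17:27854204-27854233 (minus) for Rps10, chr2:179899194-179899223 (plus) for Rps21, chr3:90120940-90120969 (minus) for Rps27 and chr9:114811793-114811822 (minus) for Rps27rt. For Rpl22 and Rps27rt the start shown is that of the canonical transcript. For the others it is the start of another annotated transcript and lies inside the annotated span of the gene. The Rps27 and Rps27rt windows share all letters after the start and differ before it, and Rps27rt has 1 exon.

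A run of C followed by at least 4 C or T began exactly at an annotated protein-coding start in 27 of the 77 core ribosomal protein genes of the mouse (35.1%), against 1857 of all 21770 protein-coding genes (8.53%). The core genes also have more annotated starts per gene, 3.62 against 3.10 on average, and of the starts themselves 33 of 279 (11.8%) and 2076 of 67401 (3.08%) hold the run. With only the canonical start of each gene the shares were 7.79% and 3.62%. Within 5 bases of the canonical start the run was found in 24.7% of core genes and 19% of all genes, and on the opposite strand in 19.5% and 21.3%. Rpl39, Rpl41, Rpl23a and Rpl37a have no run at any annotated start. Other genes known for a TOP start had the run in 5 of 22 (22.7%), and the mitochondrial ribosomal proteins, which belong to another ribosome, in 8 of 78 (10.3%). A match depends on the exact start the annotation gives and is a description of these letters only.

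All 93 mouse members are in the annotation, on 19 chromosomes. Chromosome 7 carries the most, 15. Of the members 87 are annotated as protein-coding and 6 have another biotype.

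Ribosomal protein RNA made up 146 UMIs per 10000 UMIs in opossum V1 (interval 145 to 147) and 213 in mouse V1 (213 to 214). The opossum regions stood at 139, 144 and 166, and the mouse regions at 213, 219, 213 and 209.7. The spread over the opossum regions was thus larger than the counting error. Region 3 of the opossum, with the highest level, also had the lowest median of UMIs per cell, 1048 against 1358 and 1503. Among cells of 1000 to 2000 UMIs the regions were at 145.5, 154 and 165.5, so the order of the regions was kept. Nearly every cell held RNA of this family: 17 of 4806 opossum cells had no member UMI (0.354%, Clopper-Pearson interval 0.206 to 0.566) and 5 of 9127 mouse cells (0.0548%, 0.0178 to 0.128). A median opossum cell had 19.5 member UMIs from 12 members and a median mouse cell 27 from 19. All other cells of the sections had higher levels, 169 and 236, and lower medians of 850 and 1120 UMIs per cell. They can include V1 tissue outside the regions drawn by hand, so these values do not compare V1 with other areas. The sums of the species cover different sets of genes and are set side by side below only over shared symbols.

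Large subunit proteins held more of the UMIs than small subunit proteins in both species. In the opossum the core large subunit genes, with the stalk counted among them, summed to 90.6 UMIs per 10000 and the core small subunit genes to 49.7. In the mouse they summed to 125 and 82.3. The ratios of large to small were 1.82 for the opossum and 1.52 for the mouse. The opossum ratio sets 24 large subunit genes and 1 stalk gene against 18 small subunit genes. The mouse ratio sets 43 large subunit genes and 3 stalk genes against 31. RPL39 alone made up 19.3 of the opossum's 90.6. Ratios without this gene were not computed, so the order of the species in this ratio was not interpreted. Each UMI stands for 1 captured molecule whatever the length of the gene, so no length correction was made.

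Among the opossum's large subunit genes, RPL39, which codes for a very small protein near the exit of the ribosome's tunnel, stood far above the others. It had 19.3 UMIs per 10000 UMIs (18.9 to 19.6), with 17.7, 19.2 and 22.4 in the 3 regions, and was found in 82.3% of cells. Its 13352 UMIs were 13.2% of all member UMIs, and it ranked 19 among all features. The next members were RPL4 at 5.44, RPL21 at 4.67, RPL23 at 4.44 and RPS23 at 4.41. Those 4 lie close together, while RPL39 is set apart from them in every region. The lowest opossum members were RPL3L with 2 UMIs, RPL7L1 at 0.382, RPS19BP1 at 0.439, RPL12 at 1.05 and RPS4Y1 at 1.33. RPL3L codes for a form of Rpl3 known from striated muscle, and neither RPL7L1, a factor in the making of the large subunit, nor RPS19BP1, a protein that binds Rps19, is part of the finished ribosome.

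The mouse levels ran more evenly down from the top. Rplp1, an acidic protein of the stalk that contacts translation factors, was the highest at 7.47 UMIs per 10000 UMIs (7.32 to 7.62), with 7.5, 7.66, 7.59 and 7.13 in the 4 regions, and was found in 53.3% of cells. Rpl41, the shortest of the ribosomal proteins, followed at 6.5, then Rpl13a at 5.7, Rpl23 at 5.42 and Rps21 at 5.27. The rest of the stalk was lower: Rplp2, the partner of Rplp1, had 2.5 and Rplp0, the base that holds both, 1.18. In the opossum only RPLP0 of the stalk was found by symbol, at 3.71.

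On the mouse small subunit, Rpsa, also known as a laminin receptor, had 2.39 UMIs per 10000 UMIs, and Rps6, the protein that S6 kinases phosphorylate when mTOR is active, had 1.63. By level Rps6 ranked 62 among the 93 mouse members. The phosphorylation itself was not measured.

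Several mouse members are copies of another member, and for those that differ in sequence the captured RNA of both can be set side by side. Rpl22l1 had 1.42 UMIs per 10000 UMIs and its partner Rpl22 1.34, with 71.1% identical coding bases over the aligned part. Rpl36al had 1.51 and Rpl36a 2.17, with 87.7% identity. Rpl36a was above Rpl36al in each of the 4 regions, with 2.28, 2.14, 2.02 and 2.13 against 1.38, 1.65, 1.6 and 1.52. Rps27l had 0.238 against 1.53 for Rps27, with 76.2% identity, and Rps4l 0.375 against 2.99 for Rps4x, with 80.0% identity. The tissue-restricted copies were at or near 0: Rpl3l had 13 UMIs against a level of 4.22 for Rpl3, and Rpl39l and Rpl10l, both known from testis, had 0 UMIs, which allows up to 0.00295 UMIs per 10000 UMIs (upper Poisson limit). Their partners Rpl39 and Rpl10 had 2.23 and 0.459.

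Other copies are so close in sequence that reads could have been counted for either gene, and their values are uncertain. Rps27rt has 252 of 252 coding bases in common with Rps27 and had 0.126 UMIs per 10000 UMIs. Rpl37rt, 99.7% identical to the coding bases of Rpl37 over the aligned part, had 1.27 against 4.07. Rps3a2 and Rps3a3 (99.5% and 99.0% identical to Rps3a1) had 0.127 and 0.0391 against 4.48. Rpl6l and Rpl32l had 0.0415 and 0.02, and Rps12l1, identical to Rps12 over 384 bases, had 0 UMIs. All of these were below the gene they copy. How reads that match several places were counted is not given in the sources used here.

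Among the glutamatergic, GABAergic and non-neuronal classes, the family's summed level was highest in non-neuronal cells in both species. Cells given no class were at 187 in the opossum (46 cells, 175 to 200) and at 228 in the mouse (512 cells). The opossum had 144 in the glutamatergic, 134 in the GABAergic and 163 in the non-neuronal class, and the mouse 207, 210.4 and 234. Class and subclass labels were at odds for many opossum cells: the non-neuronal class holds 677 cells, while OD, Astro, OPC, Endo and Micro together have 1257. Of 565 opossum OD cells 331 carried the glutamatergic class, with a level of 175 (171 to 180), and 230 the non-neuronal class, with 174 (170 to 179). In the mouse 104 of 588 OD cells carried the glutamatergic class, at 238 against 247 in the 481 of the non-neuronal class. Comparisons below use subclass labels unless a class is named. OD stood at 175 in the opossum (172 to 178), with 165, 177 and 189 in the regions, and at 245.5 in the mouse (242 to 249), with 244, 256, 251 and 237.5. In the opossum, endothelial cells (Endo, 65 cells) at 187 and microglia (Micro, 32 cells) at 178 had levels whose intervals overlap that of OD. In the mouse, Endo stood at 235, L6b (26 cells) at 232 and Micro at 231.5. Mouse astrocytes (Astro) at 218 were below L5NP at 227, OPC at 225 and Vip at 223. In every region of both species OD was above IT_A or L2/3.

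At the low end of the opossum order, IT_B, which the study sets beside L4 of the mouse, had 115 (111 to 120.0), with 114, 109.7 and 129 in the regions. It was below every other subclass of at least 100 cells in each of the 3 regions. The next were Vip (38 cells) at 131, L5PT at 133 and IT_A at 134, which do not differ beyond their intervals. Sst, IT_C and Pvalb stood at 142, 143 and 143, again within their intervals, and L6CT and L5NP at 150.1 and 150.5. These opossum interneuron levels pool cells of unlike class. Sst was at 128 in the GABAergic class (84 cells, 122 to 134) and 160 in the glutamatergic (83 cells, 152 to 168). Pvalb was at 134 (197 cells, 130 to 138) and 157 (142 cells, 151 to 163), and Vip at 116 and 151. The place of these 3 subclasses in the order thus depends on the cells used. In the mouse the low end held Lamp5 (35 cells) at 188, L2/3 at 199, Pvalb at 199, L4 at 199.5, L5PT at 201 and L5IT at 201, and these 6 do not differ beyond their intervals. L6CT at 218 was above them, while the interval of L6IT at 207.5 (204 to 211) overlaps those of L5IT, L5PT and Pvalb.

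UMIs per cell differ between subclasses and move with these levels in the opossum. The median was 1077 UMIs in opossum OD, 1365 in IT_A, 1603 in IT_B and 1894 in L5PT. Among cells of 1000 to 2000 UMIs, IT_B was at 115 and OD at 178, near their values over all cells, but L5PT was at 161 and L6CT at 163, above IT_A at 140.3. Labels given in the first of the 3 labelling rounds, the closest matches, gave 107 for IT_B and 106.5 for L5PT, whose cells had a median of 3042 UMIs, 125 for IT_A, 140.2 for L6CT and 173 for OD. In the mouse the first-round labels gave 166 for L5PT, 185 for L4, 187 for L2/3, 199.7 for L6CT and 242 for OD. OD was above the glutamatergic subclasses named in this paragraph in each of these selections, by least in the opossum at 1000 to 2000 UMIs, while the place of L5PT depends on the cells used.

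**Figure D1:**
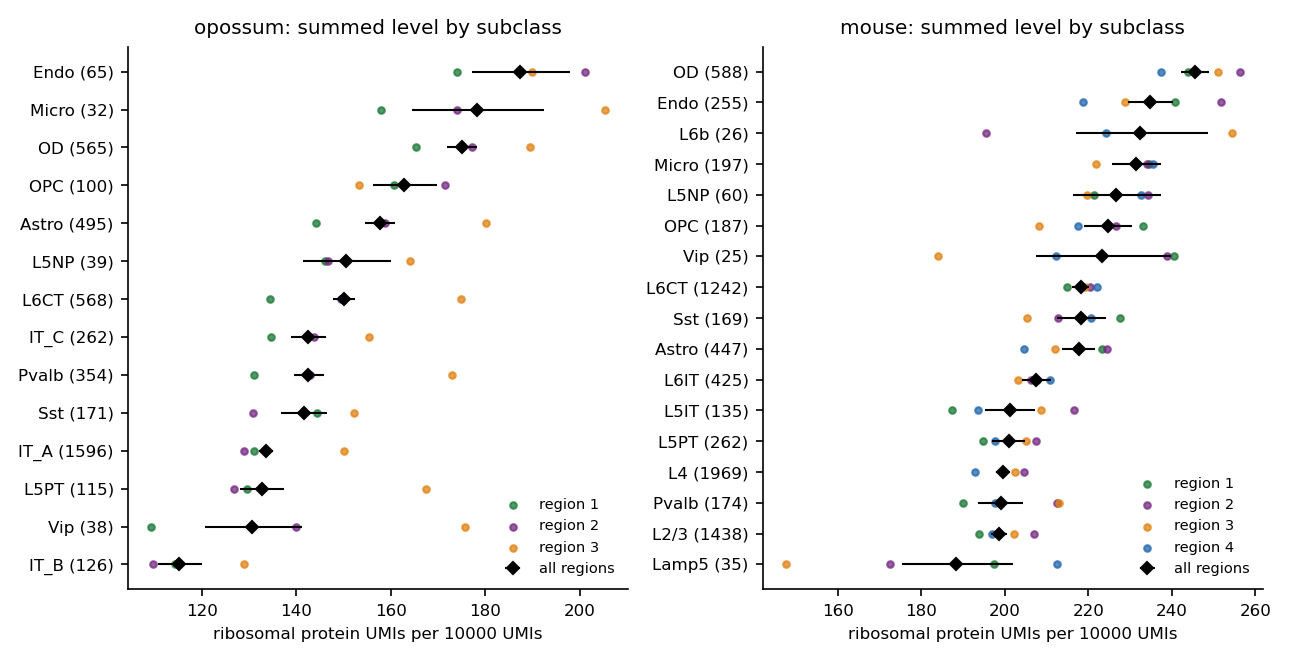
Summed level of the ribosomal protein genes, in UMIs per 10000 UMIs, on the horizontal axis for each V1 subclass with at least 25 cells (number of cells in brackets), opossum on the left and mouse on the right. Black diamonds are the level over all regions with its exact Poisson interval and colored points are single regions. OD lies at 175 and 245.5, and IT_B at 115 is the lowest opossum subclass.

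Member by member, the comparison of OD with all other labelled cells used the members with at least 500 UMIs in V1, which were 45 of 48 in the opossum (all but RPL3L, RPL7L1 and RPS19BP1) and 80 of 93 in the mouse. A gene was counted as higher where its level was at least 25% above that of the other cells, and as lower where it was at least 20% below it, with the same direction in every region. On the log2 scale both limits are 0.32 from 0. In the opossum all 45 ratios were above 1, 16 members (35.6%) were counted as higher and 0 as lower, against 10.9% and 19.8% of the 3343 genes compared. In the mouse 71 of 80 ratios were above 1, 20 members (25%) were counted as higher and 0 as lower, against 5.69% and 9.84% of 5498 genes. The median log2 ratio of opossum members was 0.30, with 0.02 over all genes, and that of mouse members was 0.24, with -0.01 over all genes. OD markers stood at 98.8 in opossum OD and 24.2 in IT_A, and the part of other RNA in each outlined cell in these ratios was not tested.

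The highest opossum ratios belonged to RPL24, RPS16 and RPL12. RPL24, a large subunit protein that bridges to the small one, had 4.97 UMIs per 10000 UMIs in OD and 3.15 in other cells in region 1, 4.57 and 3.00 in region 2, and 5.41 and 3.71 in region 3. Its ratio was 1.53, with OD higher in 3 of 3 regions, as the rule asks, and no overlap between the groups. RPS16, at the decoding side of the small subunit, had 2.14 and 1.88, 2.91 and 1.73, and 3.32 and 2.08, a ratio of 1.45. RPL12, which forms the base of the stalk with Rplp0, had 1.48 and 1.09, 1.32 and 0.954, and 1.7 and 0.938, a ratio of 1.44. For both the lowest region of OD was above the highest region of the other cells. RPL38, RPL35 and RPL13A followed at 1.44, 1.43 and 1.42. The lowest ratios were those of RPL13 at 1.00, RPL15 at 1.05 and RPL32 at 1.09, and these 3 had OD lower than the other cells in 1 region or more.

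RPL39 in opossum OD had 19.2 UMIs per 10000 UMIs in region 1, 24.5 in region 2 and 26.7 in region 3, against 17.5, 18.4 and 21.9 in the other cells. The levels of the groups overlap across regions, but OD was higher within each of the 3. The ratio of 1.23 (log2 0.29) is just short of the fold used, as are those of RPLP0 at 1.2 and RPL22 at 1.22.

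In the mouse, the highest ratios were those of Rpl23a, Rpl37a and Rpl22, all of the large subunit. Rpl23a, at the tunnel exit, had 2.00 UMIs per 10000 UMIs in OD and 1.35 in other cells in region 1, 2.39 and 1.55 in region 2, 1.58 and 1.55 in region 3, and 2.23 and 1.36 in region 4. The ratio was 1.42, and region 3 showed almost no difference. Rpl37a had 2.59 and 1.86, 2.65 and 1.99, 3.27 and 2.01, and 2.19 and 1.81, a ratio of 1.39. Rpl22 had 1.82 and 1.3, 2.05 and 1.3, 1.46 and 1.26, and 1.76 and 1.26, a ratio of 1.37. For Rpl37a and Rpl22 the lowest region of OD lay above the highest region of the other cells. Rpl22l1, the copy of Rpl22, had a ratio of 1.10 and was not counted as higher. Rplp1, the highest mouse member, had 8.75, 9.4, 11 and 8.94 in OD and 7.26, 7.43, 7.37 and 6.88 in other cells. Its ratio was 1.30, again with no overlap between groups, while Rplp2 had 1.13 and Rplp0 1.19.

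The mouse members lowest in OD were Rpl29 at a ratio of 0.880, Rpl36al at 0.894 and Rps27 at 0.910. Rpl29 had 57 UMIs in OD and Rpl36al 109, and none of the 3 was counted as lower. The opossum RPS27 was among those counted as higher in OD.

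Of the members counted as higher in OD, 3 were the same in both species, namely Rpl13a, a protein also known for a role in silencing certain messenger RNAs in inflammation, Rpl24 and Rps27a, which is made as a fusion with ubiquitin. They are 18.8% of the opossum's 16 and 15% of the mouse's 20, lists that include members with no counterpart in the other species. The overlap over all genes was not computed. Rpl13a had ratios of 1.42 and 1.26, Rpl24 of 1.53 and 1.26, and Rps27a of 1.33 and 1.30.

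**Figure D2:**
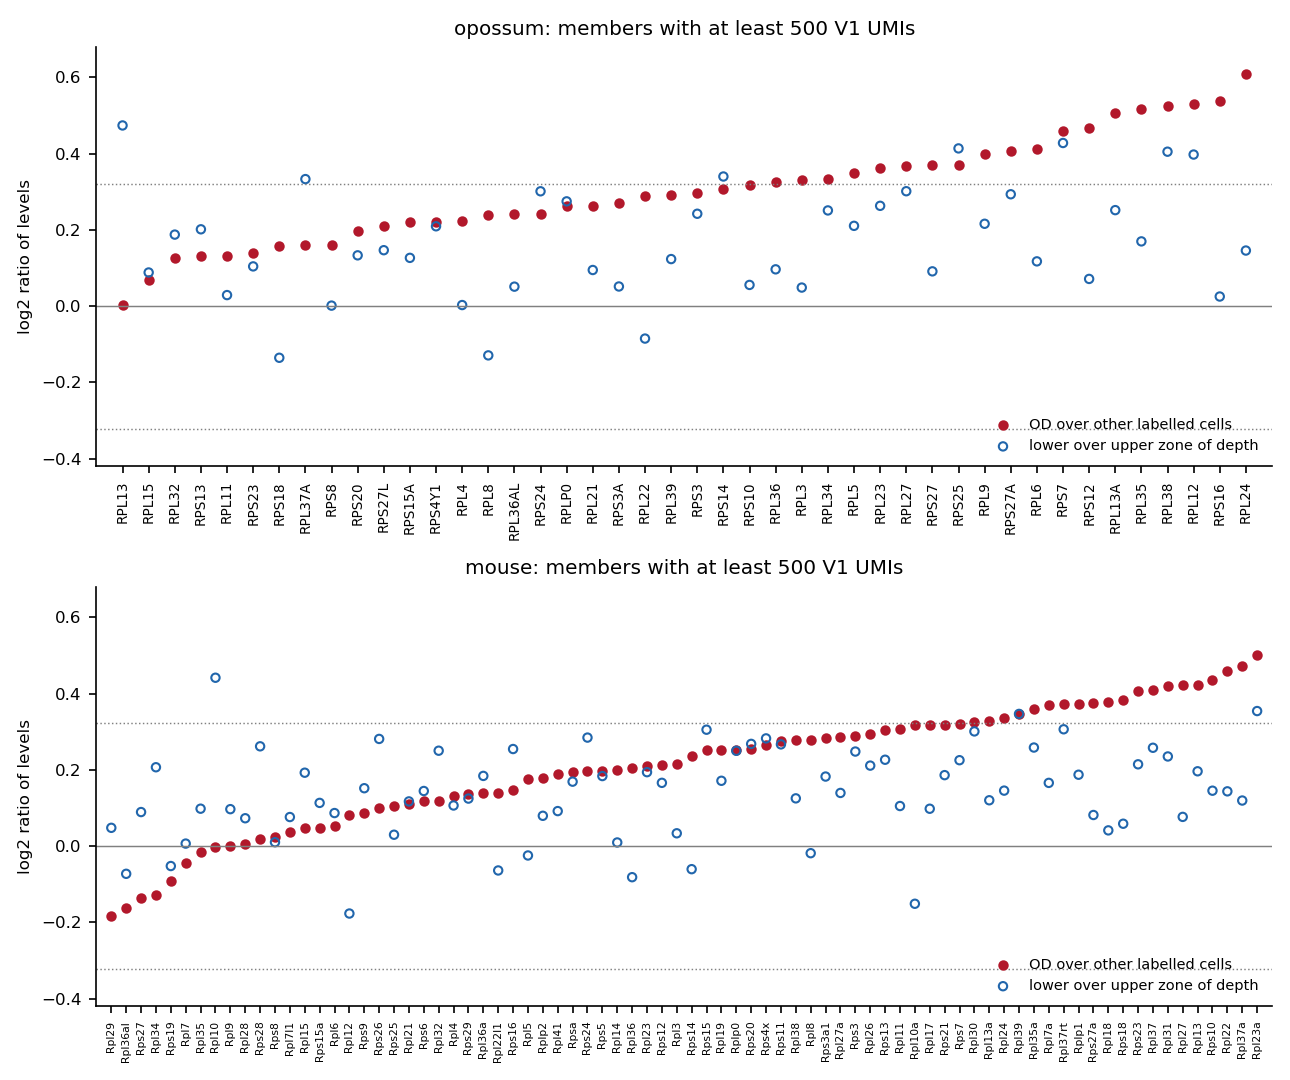
Log2 ratio of levels for members with at least 500 V1 UMIs, ordered by the ratio of OD to other labelled cells (filled points), with the ratio of the lower to the upper zone of depth as open points. Dotted lines mark the limits of 25% above and 20% below. Some members are not shown. Filled points lie above 0 for 44 of the 44 opossum and 69 of the 78 mouse members shown.

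Other genes of translation were less uniform in OD. Of the genes known for a TOP start, 10 could be compared in the opossum, with 9 ratios above 1, 2 counted as higher and a median log2 of 0.26, and 22 in the mouse, with 16 above 1, 3 higher, 1 lower and a median of 0.16. In the mouse, Fau, which is made as a fusion of a ubiquitin-like protein with Rps30, had 3.04 UMIs per 10000 UMIs in OD and 2.36 in other cells and was counted as higher, while Pabpc1, the poly(A)-binding protein, had 0.494 and 0.660 and was counted as lower. The elongation factors Eef1a1 and Eef2 had ratios of 1.23 and 1.19. Initiation factors had medians of 0.12 in the opossum (12 compared, 1 higher) and 0.06 in the mouse (20 compared, 0 higher and 4 lower). Mitochondrial ribosomal proteins had 0.16 (14 compared, 3 higher) and 0.10 (51 compared, 3 higher and 3 lower). Ribosome biogenesis genes had 0.05 in the mouse (12 compared, 0 higher and 1 lower), and 2 could be compared in the opossum. Each list's median was below the members' median of 0.30 and 0.24.

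In opossum IT_B, 40 of 45 members had a ratio below 1, 16 were counted as lower and 0 as higher, against a background of 23.8% lower. The median log2 ratio was -0.30, with -0.13 over all genes, so part of the shift is shared by genes in general. RPL32 was the lowest, with 2.24 UMIs per 10000 UMIs in IT_B and 3.5 in other cells in region 1, 1.84 and 3.73 in region 2, and 2.58 and 4.16 in region 3, a ratio of 0.570. RPS3A and RPS15A, both of the small subunit, followed at 0.583 and 0.602. RPL39 was also counted as lower, with 12.5, 12 and 17.4 in IT_B and 17.8, 19.4 and 22.5 in other cells. IT_B was below the other cells in 3 of 3 regions for each of these, which the rule asks of every member counted as lower. RPL34 at 1.08, RPL13 at 1.06 and RPL5 at 1.03 had the highest ratios, with regions of both directions. IT_B has 126 cells, and RPS15A rests on 24 UMIs. Without region 1 the count of lower members was 25, and without region 2 or region 3 it was 16 and 19. The rule then asks for fewer regions, and the share of all genes was not computed.

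IT_A, the largest opossum subclass, had 42 of 45 members below 1 with a median log2 of -0.19, against -0.04 for all genes. The shifts were small, and 4 members were counted as lower, a share of 8.89% against a background of 10.6%. They were RPS7 at 0.703, RPL12 at 0.734, RPL13 at 0.783 and RPS14 at 0.798. RPS7 had 1.59, 1.66 and 1.72 UMIs per 10000 UMIs in IT_A and 2.11, 2.35 and 2.72 in other cells, with no overlap. L5PT had 7 members counted as lower and 0 as higher (background 16.5% and 8.44%). IT_C had 5 lower and 0 higher (12.1% and 8.2%), and L6CT 0 in either direction (10.6% higher and 13.2% lower over all genes). Among GABAergic cells, Pvalb had 4 lower and 0 higher (15.7% and 9.3%) and Sst 2 and 1 (16.9% and 7.36%). Among non-neuronal cells, Astro had 3 higher and 0 lower (7.66% and 18.6%) and OPC 6 and 2 (8.17% and 16.7%). The 6 in OPC are 13.3% of the members compared, and in the other subclasses of this paragraph the members' shares were below the background.

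Mouse L2/3 showed a smaller shift of the same sign. Of 80 members 14 had a ratio above 1, 0 were counted as higher or lower against backgrounds of 5.4% and 6.24%, and the median log2 was -0.10, against -0.03 for all genes. Rplp1 had 5.84, 7.47, 6.41 and 6.16 UMIs per 10000 UMIs in L2/3 and 7.72, 7.58, 7.85 and 7.25 in other cells, a ratio of 0.830. It was lower in 4 of 4 regions, though by little in region 2. Rpl37a and Rps3 were at 0.836 each. Rpl22l1 had the highest ratio, 1.21, with 1.04, 2.42, 2.19 and 1.73 against 1.32, 1.5, 1.34 and 1.4, lower in region 1 and higher in the other 3. Rpl36 and Rpl12 were at 1.09 and 1.07. In L4, 2 members were counted as lower, Rpl37rt at 0.780 and Rps23 at 0.796, and 0 as higher (background 5.51% and 5.44%). L5IT had 7 lower and 2 higher (8.89% and 3.67%), L5PT 4 and 0 (9.93% and 5.42%), L6IT 3 and 1 (6.71% and 3.38%), and L6CT 0 in either direction (7.84% and 4.84%). Pvalb had 8 lower and 1 higher (10.4% and 3.86%) and Sst 1 and 3 (9.08% and 4.2%). In non-neuronal cells, of the 80 members, 5 were higher and 0 lower in Endo (4.46% and 9.51%) and 8 and 2 in Micro (4.67% and 9.62%). The counts were 9 and 5 in OPC (3.56% and 9.28%) and 2 and 1 in Astro (4.93% and 7.97%). In Astro the members' share counted as higher, 2.5%, was below the background, so these counts were not read as a trait of non-neuronal cells.

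Deep in V1 the summed level was higher than near its upper edge in both species. The depth of each region was divided into 3 equal zones, upper, middle and lower. In the opossum the level was 137 in the upper zone, 148 in the middle zone and 152 in the lower, and in the mouse 204, 209 and 226. The lower zone was above the upper in each opossum region, with 141 and 132 in region 1, 152 and 132 in region 2 and 177 and 155 in region 3. The same held in the mouse, with 223 and 205 in region 1, 231 and 213 in region 2, 226 and 203 in region 3 and 226 and 195 in region 4. The rise was not steady in every region. The middle zone stood at 143 in opossum region 1, above the lower, and at 211 in mouse region 2, below the upper. In the other regions it lay between them. Over 10 bins of depth the opossum values ran from 134 in bin 2 to 161 in bin 10 and the mouse values went from 205 in bin 1 to 238 in bin 10, with the lowest in bin 4. OD made up 3.67% of cells in the opossum bin with the fewest and 29.5% in the bin with the most, and 0.665% and 23.7% in the mouse.

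Part of this course is also seen without OD. Over cells with a glutamatergic subclass label, the opossum zones stood at 131, 140.0 and 143 and the mouse zones at 198, 202 and 216. Their oligodendrocyte markers moved in the same direction, with 19.0 UMIs per 10000 UMIs in the upper and 43.4 in the lower zone of the opossum. Over all cells these markers stood at 21.6 and 55.2 in the opossum zones and at 16.2 and 37.3 in those of the mouse. The part of that RNA in the result was not tested. Within single subclasses the direction was not uniform. Opossum IT_A went from 129.7 to 139.5 and 145, while IT_C had 158, 163 and 132 and L6CT 159.6, 158 and 149. Median UMIs per cell moved as well, with 1427, 1216 and 1630 in the zones of IT_A, 523, 1187 and 2283 in IT_C and 838, 951 and 1884 in L6CT, and their part was not tested. Mouse L2/3 had 194, 213 and 227 and L4 200.5, 196 and 223, while L6CT had 224, 220.0 and 218. Mouse OD had 209.8, 237 and 251, and mouse Astro 212, 215 and 228.

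**Figure D3:**
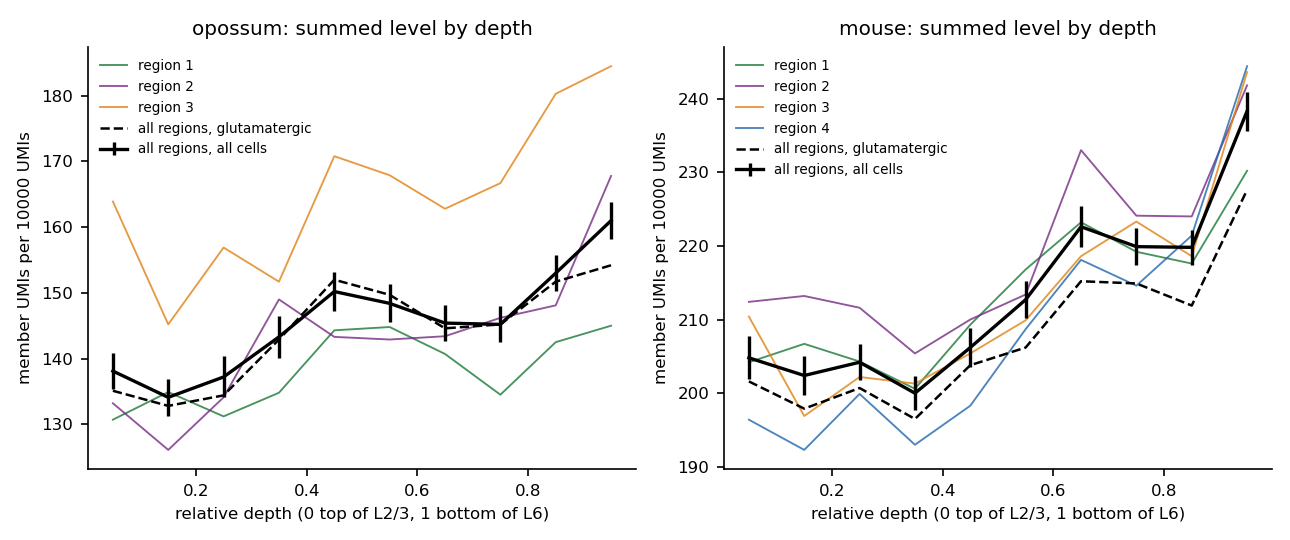
Summed level of the ribosomal protein genes, in UMIs per 10000 UMIs, in 10 equal bins of relative depth (0 at the upper edge of L2/3, 1 at the lower edge of L6), opossum left and mouse right. The black line with exact Poisson intervals is all cells, the dashed line cells of the glutamatergic class and the colored lines single regions. The opossum runs from 134 in bin 2 to 161 in bin 10, and the mouse ends at 238.

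Between the lower and upper zone of depth, 42 of 45 opossum members had a ratio above 1, 7 were counted as higher and 0 as lower, against backgrounds of 14.8% and 14.4%, and the median log2 was 0.15 with 0.03 over all genes. The share counted as higher, 15.6%, is near the background. RPL13, a large subunit protein, had 1.55 UMIs per 10000 UMIs in the lower and 1.26 in the upper zone in region 1, 2.00 and 1.17 in region 2, and 1.45 and 1.31 in region 3, a ratio of 1.39. RPS7 and RPS25, of the small subunit, had ratios of 1.35 and 1.33, and RPL38, RPL12, RPS14 and RPL37A were also counted as higher. RPS18 at 0.911, RPL8 at 0.914 and RPL22 at 0.943 had the lowest ratios. Without region 1 the count of higher members was 11, under a rule that asks for fewer regions and without the share of all genes.

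In the mouse, 71 of 80 ratios were above 1, 4 members (5%) were counted as higher and 0 as lower, against backgrounds of 8.26% and 9.95%, and the median log2 was 0.15 with 0.02 over all genes. Among them were Rpl10, a late-joining protein of the large subunit, at 1.36, Rpl23a at 1.28 and Rpl39 at 1.27. Rpl39 had 2.49, 2.91, 2.28 and 2.27 UMIs per 10000 UMIs in the lower zone and 1.99, 2.02, 1.9 and 1.85 in the upper, with no overlap. Rpl10 had 0.567, 0.493, 0.496 and 0.507 against 0.454, 0.226, 0.472 and 0.296, also with no overlap. Rpl12 at 0.885, Rpl10a at 0.900 and Rpl36 at 0.945 were the lowest. Without region 1 the count was 10, again under a rule that asks for fewer regions and without the share of all genes. Over cells of the glutamatergic class 6 opossum and 2 mouse members were counted as higher, against 15.6% and 8.46%. This class holds cells labelled OD, which made up 3.15% of it in the uppermost and 19.1% in the lowest of 10 depth bins in the opossum, against 0.808% and 5.27% in the mouse, and their part in these counts was not tested. The members' shift with depth lay in many small ratios on 1 side of 1, and the shares counted as higher, 15.6% and 13.3% of opossum members and 5% and 2.5% of mouse members, were near or below the background.

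The family's share of a cell's RNA depended on the number of UMIs in the cell in the opossum and much less in the mouse. Opossum cells under 500 UMIs had 167 member UMIs per 10000, and those of at least 2000 UMIs 131. The regions were at 149, 182 and 173 in the first and at 126, 129.5 and 155 in the last. Each region thus had less in the cells with more UMIs. The mouse cells had 219 and 209. The mouse regions were at 216, 235, 221.5 and 210.1 in the first and at 203, 208, 214 and 213 in the last. Region 4 of the mouse thus went the other way. Between cells of at least 2000 and under 1000 UMIs, 25 of 45 opossum members were counted as lower and 0 as higher, against 14.1% and 21.2% of all genes, and 1 had a ratio above 1. In the mouse 1 of 80 was counted as lower and 0 as higher, against 3.64% and 3.71%. The median log2 of opossum members was -0.38, with -0.04 over all genes, and that of mouse members was -0.04, with 0.00 over all genes.

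RPL11, which also binds the p53 regulator MDM2, had the lowest opossum ratio in this comparison, 0.671. Its levels were 2.75, 2.61 and 3.98 UMIs per 10000 UMIs in the cells with more UMIs. In those with fewer UMIs they were 4.16, 4.04 and 4.33. RPL22 and RPS20 were at 0.677 each. RPL39 had 15.9, 17.4 and 20.5 against 21.4, 22.9 and 22.8, a ratio of 0.765. In all 4 the cells with more UMIs were lower in 3 of 3 regions, which the rule asks of every member counted as lower. RPS27L at 1.12, RPS4Y1 at 0.997 and RPL12 at 0.994 had the highest ratios. The fusion gene FAU was at 0.704 and RACK1, a protein that sits on the small subunit, at 0.658, and both were counted as lower, while the initiation factor EIF4A2 was at 0.926. In the mouse the 1 member counted as lower was Rpl10a at 0.709, and Rpl7a and Rpl38 were at 1.14 and 1.15.

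**Figure D4:**
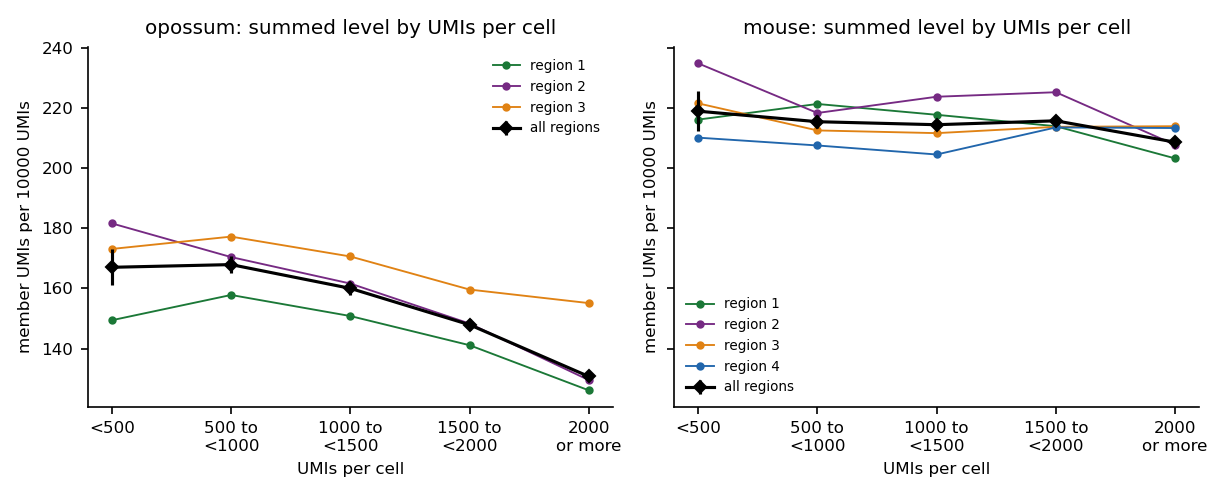
Summed level of the ribosomal protein genes, in UMIs per 10000 UMIs (vertical axis, not from 0), by the number of UMIs in the cell, opossum left and mouse right, with black diamonds for all regions with exact Poisson intervals and colored points for single regions. From the cells with the fewest UMIs to those with the most, the opossum goes from 167 to 131 and the mouse from 219 to 209.

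Between species, 46 members share a symbol and 44 of them have enough UMIs in 1 species or both. Over these the opossum summed level was 142 and the mouse level 114. Without Rpl39 they were 122 and 112. Of the 44, 7 were at least 2-fold higher in the opossum and 2 at least 2-fold higher in the mouse, against 21.6% and 20.4% of 4091 genes matched in the same way. The members are thus not more divergent in level than matched genes in general. The median log2 ratio of opossum over mouse was 0.21 with 0.08 over all matched genes, and Spearman's rho between the levels was 0.424 across the 44 genes, as a description of genes that share their libraries.

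Rpl39 had the largest difference, 8.66-fold higher in the opossum (19.3 against 2.23 UMIs per 10000 UMIs). Its 3 opossum regions, 17.7 to 22.4, lie far from the mouse value. Rps27l followed at 5.82-fold (1.39 against 0.238), then Rpl36 at 4.2 (3.72 against 0.886), Rplp0 at 3.13 (3.71 against 1.18), Rpl15 at 2.59 (2.47 against 0.950), Rpl36al at 2.46 (3.71 against 1.51) and Rpl35 at 2.22 (1.84 against 0.830). In the mouse Rpl12 was 3.03-fold higher (3.18 against 1.05) and Rpl3 2.13-fold (4.22 against 1.98). The other 35 differed by less than 2-fold. Species, animal, RNA integrity (7.1 in the opossum and above 9 in the mouse), the reference used for counting and the number of annotated copies cannot be told apart in these values.

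**Figure D5:**
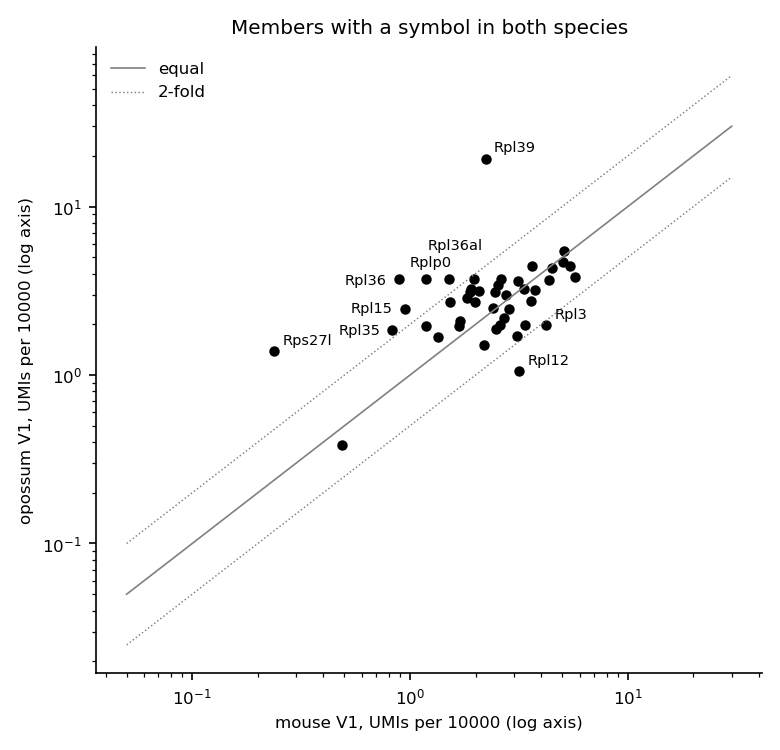
Level of each of the 44 members with a shared symbol in mouse V1 (horizontal, log axis) and opossum V1 (vertical, log axis), in UMIs per 10000 UMIs. The solid line marks equal levels and the dotted lines 2-fold. Rpl39 lies farthest above the line, at 19.3 and 2.23, and Rpl12 farthest below, at 1.05 and 3.18.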

How the data were processed

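Stereo-seq was performed on V1 of 1 opossum and 1 mouse. Per the methods, reads were processed by the authors with SAW, the Stereo-seq software, after alignment to a custom opossum genome with extended 3′ ends or to GRCm39, and the submitters' processing notes also name Cell Ranger. The deposited values are UMI counts per gene and outlined cell, not normalized, with positions, V1 regions, filter flags and labels given by nearest neighbors. The authors' filter on cells (50 genes, 100 UMIs) was kept, and no doublet caller was run.

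Counts were summed over cells with Python 3.11.15, numpy 2.4.6, scipy 1.17.1 and pandas 2.3.3, and levels are UMIs per 10000 UMIs. Plots were drawn with matplotlib 3.10.9, and coding sequences were aligned locally with Biopython 1.88. Subclass levels needed 25 cells, member comparisons 100 cells and 500 UMIs of the gene in V1, and a difference of 25% above or 20% below within and 2-fold between species. Depth was scaled within each region and divided into 10 bins and 3 zones. The fold rule was tested on simulated counts. Named were the 5 highest and 5 lowest members, the stalk proteins, Rpsa, Rpl41, Rps6, Rpl22, copies with partners, members that are no ribosomal proteins, and the 3 highest and lowest ratios per comparison. Alternatives were thinning to 300 UMIs, means over cells, first-round labels, other gene and cell filters, other folds, other denominators and leaving out regions. Members and lists were chosen with earlier results of these data known. A few items are not reported here.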

Additional observations from a re-analysis of the deposited data

Results flagged for a closer look

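Rps12, of the small subunit, moved in opposite directions in Pvalb cells of the species. Its level in Pvalb over that in other labelled cells was 0.719 in the opossum, with 0.800, 0.61 and 0.903 in the regions, and 1.10 in the mouse, with 1.08, 1.38, 1.02 and 1.05. Rpl12, of the stalk base, had a ratio of 1.32 between the lower and upper zone of depth in the opossum (1.19, 1.24 and 2.03) and of 0.885 in the mouse (0.934, 0.808, 0.803 and 0.964). Both were picked by a rule that asks for every region of the species on opposite sides of 1. The rule also asks that the member be counted as higher or lower in 1 species or both. The agreement of regions is thus no separate result. The share of all matched genes that meet this rule was not computed, and the difference was not tested. Each was 1 of 42 matched members in its comparison, and 0 were found in the 6 other comparisons examined in this way.

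The mouse table also holds 276 features with a ribosomal pseudogene symbol, which the comparisons left out. Of these, 203 had UMIs in V1, and their summed level was 6.96 UMIs per 10000 UMIs, which is 3.26% of the members' UMIs. No opossum symbol of that form was found.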

How the results depend on the processing

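Of 206 alternative values of the main results 149 stayed within the limits set (counting error for levels and ratios, 1.5 times for counts), 57 moved and 0 reversed. Of 336 for named members, judged by a fixed limit on the log2 scale, 302 stayed, 34 moved and 0 reversed. Only ratios of the summed level, and ratios of named members past the fold in the main comparison, could be labelled reversed. Levels, counts of members and ratios of other members could not. Single subclass ratios to other cells, outside these 206 and 336 values, crossed 1 at 1000 to 2000 UMIs for opossum L5PT (0.912 to 1.06) and IT_C (0.981 to 1.00) and for mouse Astro (1.03 to 0.995) and Lamp5 (0.892 to 1.01). Alternatives with 1000 to 2000 UMIs per cell, without Rpl39, over shared symbols or without the feature of most UMIs were chosen after seeing the data. The summed opossum level of 146 was 152.5 with thinning, 154.4 as a mean over cells, 153.5 at 1000 to 2000 UMIs, 126.9 without Rpl39, 108 without the 5 highest members, 149.3 without the top feature, 142.1 over shared symbols and 141.3 to 151.2 leaving out a region. The mouse level of 213 was 214.3 as a mean over cells, 215 at 1000 to 2000 UMIs, 211.2 without Rpl39, 183.1 without the 5 highest, 221.1 without the top feature, 217.4 without mitochondrial genes, 114.7 over shared symbols and 212.2 to 214.5 leaving out a region. Leaving out mitochondrial genes was not run for the opossum, whose features name none.

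The log2 ratio of the summed level in OD was 0.30 in the opossum, and 0.21 with thinning, 0.26 as a mean over cells, 0.39 with first-round labels, 0.25 at 1000 to 2000 UMIs and 0.27 to 0.33 leaving out a region. In the mouse it was 0.24, and 0.22 as a mean over cells, 0.33 with first-round labels and 0.23 to 0.25 leaving out a region. For IT_B it was -0.34, and -0.27 with thinning, -0.42 at 1000 to 2000 UMIs and -0.39 to -0.29 leaving out a region. For L2/3 it was -0.11, and -0.076 with first-round labels and -0.12 to -0.083 leaving out a region. For depth it was 0.16 in the opossum, with 0.12 after thinning, 0.12 as a mean over cells, 0.21 at 1000 to 2000 UMIs and 0.13 to 0.19 leaving out a region, and 0.15 in the mouse, with 0.12 in cells of the glutamatergic class, 0.12 over shared symbols and 0.13 to 0.17 leaving out a region.

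Counts of members moved most with the fold. At 1.5-fold, 1 opossum and 0 mouse members were counted as higher in OD (16 and 20 in the main comparison), 6 as lower in IT_B (16), and 0 in each species as higher in the lower zone (7 and 4), while between species 14 and 4 passed 1.5-fold (7 and 2 at 2-fold). At 1000 to 2000 UMIs, 10 opossum members were higher in OD and 12 in the lower zone. In the mouse, thinning gave 11 higher in the lower zone and 2 lower in L2/3, a minimum of 200 UMIs 1 lower in L2/3, and cells of the glutamatergic class 2 higher in the lower zone. Leaving out a region gave 17 to 23 and 20 to 26 in OD, 16 to 25 in IT_B, 0 to 1 in L2/3, and 7 to 11 and 4 to 10 in the lower zone, the highest of the last 2 and of IT_B without region 1. Leaving out a region asks for the same direction in fewer regions, so the rule is less strict for every gene. The share of all genes counted under these settings was not computed. The cause of these moves was not tested further. No paired analysis was possible because each group holds 1 sample. With about 19.5 and 27 member UMIs in a median cell, single members could be compared over summed cells only.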
